A study of Mus musculus with 3 samples.

Results

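Peaks of Atoh7, a transcription factor of the basic helix-loop-helix (bHLH) family made by neurogenic progenitors of the developing retina, are described here where they lay at the ends of long noncoding RNA (lncRNA) genes. Of the 3668 peaks in the deposited list, 3662 lay on chromosomes 1 to 19 and X, and 450 of these (12.3%, with a 95% Wilson interval of 11.3 to 13.4%) had their centre no more than 5 kb from either end of a RefSeq lncRNA gene and more than 1 kb from every end of a protein-coding gene. The list came from CUT&RUN, an assay that frees the DNA next to an antibody-bound protein with a tethered nuclease, on retina of C57Bl6/J mice at embryonic day 14. The labels give 2 libraries made with the Atoh7 antibody and 1 with control IgG, all from that strain, age and tissue, and name no mutation or treatment. Every peak name carries the prefix Atoh7_R1, so the whole list may come from replicate 1 alone, and whether it rests on 1 or both is not given. Whether these libraries were made from different animals or litters, and from how many retinas, is not given. The file gives the position and width of each peak and no height or value per library, so depth is unknown, the IgG background is not analysed here, and no difference below was tested across samples. Intervals on shares cover the counting of peaks or genes only.

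LncRNA genes are transcribed from start sites of their own into RNAs that encode no long protein, and many lie beside or across developmental regulator genes. Some are known to act on a neighbouring gene or on other proteins, and others are precursors from which microRNAs (miRNAs) or small nucleolar RNAs (snoRNAs) are cut. For most of the models named below by a Gm or LOC number no role is known. Proneural bHLH proteins such as Atoh7 bind as dimers with E-proteins to E-boxes, 6-base sites written CANNTG, so a peak at the start of a lncRNA gene can be read against the E-boxes in that sequence.

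The RefSeq start windows, 250 bases before to 50 bases after an annotated start, gave the sequence under some of these peaks. In all, 52 of the 450 peaks (11.6%) overlapped such a window of a lncRNA gene by at least 1 bp, and 15 of them covered all 300 bases. The following windows (RefSeq, GRCm38.p6, the assembly that mm10 names) are shown because a peak lay over all or part of each and because their genes recur below, except Gm35227 and Gm30771, which were chosen after their E-boxes were seen. They are written 5′ to 3′ on the gene's strand, with every E-box in capitals. Windows wholly under a peak come first, from AU021063 (chr15:101220997-101221296, plus strand), Gm35227 (chr9:62166253-62166552, plus), Gm30771 (chr7:38061030-38061329, plus), 4930578M01Rik (chr15:98985715-98986014, plus), Gm19497 (chr1:134060898-134061197, minus) and Mir22hg (chr11:75461289-75461588, plus).
AU021063: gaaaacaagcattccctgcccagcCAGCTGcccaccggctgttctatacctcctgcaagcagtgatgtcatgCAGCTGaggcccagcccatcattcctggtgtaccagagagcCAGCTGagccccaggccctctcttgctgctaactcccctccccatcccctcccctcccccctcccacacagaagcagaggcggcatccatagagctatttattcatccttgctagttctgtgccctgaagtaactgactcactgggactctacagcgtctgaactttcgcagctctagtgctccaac
Gm35227: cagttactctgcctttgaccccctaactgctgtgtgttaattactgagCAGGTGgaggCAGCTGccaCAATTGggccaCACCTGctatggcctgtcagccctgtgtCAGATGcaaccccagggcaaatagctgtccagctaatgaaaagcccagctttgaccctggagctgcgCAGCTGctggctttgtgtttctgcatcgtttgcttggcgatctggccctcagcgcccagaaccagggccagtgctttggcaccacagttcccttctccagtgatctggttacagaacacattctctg
Gm30771: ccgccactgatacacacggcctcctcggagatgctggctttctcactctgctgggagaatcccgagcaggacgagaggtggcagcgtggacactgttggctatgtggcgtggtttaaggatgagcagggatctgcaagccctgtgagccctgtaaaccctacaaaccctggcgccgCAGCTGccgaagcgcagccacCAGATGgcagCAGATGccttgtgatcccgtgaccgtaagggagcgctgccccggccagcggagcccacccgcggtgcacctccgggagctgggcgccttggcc
4930578M01Rik: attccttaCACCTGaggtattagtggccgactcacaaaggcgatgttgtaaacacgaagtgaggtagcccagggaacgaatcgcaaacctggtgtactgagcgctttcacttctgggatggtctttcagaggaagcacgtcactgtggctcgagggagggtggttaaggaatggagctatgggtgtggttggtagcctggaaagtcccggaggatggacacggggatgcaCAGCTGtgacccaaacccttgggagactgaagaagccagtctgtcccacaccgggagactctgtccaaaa
Gm19497: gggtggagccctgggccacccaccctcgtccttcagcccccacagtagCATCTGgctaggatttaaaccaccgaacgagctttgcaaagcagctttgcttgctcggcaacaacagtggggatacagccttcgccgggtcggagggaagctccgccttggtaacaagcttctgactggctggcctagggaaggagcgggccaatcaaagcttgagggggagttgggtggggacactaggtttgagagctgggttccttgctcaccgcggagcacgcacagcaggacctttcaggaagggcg
Mir22hg: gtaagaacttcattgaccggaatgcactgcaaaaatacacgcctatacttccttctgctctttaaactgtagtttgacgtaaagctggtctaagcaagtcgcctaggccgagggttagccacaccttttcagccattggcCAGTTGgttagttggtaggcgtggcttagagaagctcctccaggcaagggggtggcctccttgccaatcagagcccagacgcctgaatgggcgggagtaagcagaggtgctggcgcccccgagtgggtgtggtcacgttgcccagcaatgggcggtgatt
For Kcnq1ot1 (chr7:143296582-143296797, minus) and Snhg8 (chr3:123508460-123508586, minus) only the part of the window under the peak is shown, 216 and 127 bases long. The Snhg8 part holds no E-box.
Kcnq1ot1: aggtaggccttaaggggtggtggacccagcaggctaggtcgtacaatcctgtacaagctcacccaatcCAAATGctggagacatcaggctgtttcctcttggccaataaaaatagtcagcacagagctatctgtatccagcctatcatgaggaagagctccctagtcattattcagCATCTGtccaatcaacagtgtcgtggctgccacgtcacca
Snhg8: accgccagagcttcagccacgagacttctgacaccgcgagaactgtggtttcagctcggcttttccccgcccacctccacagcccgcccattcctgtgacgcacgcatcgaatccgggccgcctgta

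These windows differ in which E-box they carry. The AU021063 window has 3 E-boxes, all of them CAGCTG, and the Gm30771 window has 1 CAGCTG and 2 CAGATG. The Gm35227 window holds 6 E-boxes, the most under any of the 52 peaks, among them 2 CAGCTG. The Gm19497 window has a single CATCTG, which is CAGATG read on the opposite strand, and the Mir22hg window a single CAGTTG.

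Over the 52 windows, 1 for each peak, CAGCTG and CAGATG were the most frequent E-boxes. CAGCTG stood in 17 windows (32.7%, 95% Wilson interval 21.5 to 46.2%), against 17.5% (16.8 to 18.2%) of the 11440 lncRNA start windows that no peak overlapped. CAGATG, with its reverse complement CATCTG, stood in 21 windows (40.4%, 28.2 to 53.9%), against 21.8% (21.1 to 22.6%). The intervals of both hexamers lay above those of the windows without a peak. CATATG was in 4 windows (7.69%) against 5.26%, and CACCTG, with CAGGTG, in 9 (17.3%) against 21.1%, both within counting error. CAACTG, with CAGTTG, was in 3 windows (5.77%, 1.98 to 15.6%) against 15.9%. CACGTG also stood in a larger share, 6 windows (11.5%, 5.40 to 23.0%) against 5.86%, within counting error. CACATG and CAAATG, with their reverse complements, were in 6 windows each (11.5%), against 19.1% and 17.7%. CAAGTG was in 7 (13.5%) against 14.5%, and CAATTG in 3 (5.77%) against 3.92%. An E-box of any kind was in 44 of the 52 windows (84.6%, 72.5 to 92.0%) against 78.4%. The mean number of E-boxes per window was 1.92 against 1.63. Start windows under a peak were also richer in G and C, with a median GC content of 57.0% against 48.3%, and the part of base composition in these shares was not tested. All hexamers were searched on both strands, and no CANNTG was left out for overlap with another.

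Within the same 52 windows the sequence under the peak could be set beside the rest. The 10182 bases under the peaks held 72 E-boxes (7.07 per kb) and the other 5418 bases held 28 (5.17 per kb). CAGCTG occurred 19 times under the peaks (1.87 per kb) and 5 times outside (0.923 per kb). CAGATG or CATCTG occurred 19 times (1.87 per kb) and 7 times (1.29 per kb), and CATATG 4 times and 0 times. CACCTG or CAGGTG occurred 11 times under the peaks (1.08 per kb) and 1 time outside (0.185 per kb). Each of these hexamers was thus denser under the peaks than in the rest of the windows, as were E-boxes of any kind. CATATG aside, the contrast was widest for CACCTG, on small counts and without a test. Other E-boxes were less dense under the peaks, such as CACGTG (0.196 against 0.738 per kb) and CAAGTG (0.393 against 0.738 per kb). In 31 of the 52 windows (59.6%) at least 1 E-box lay under the peak, and in the other 21 none did. Of the protein-coding start windows under a peak, CAGCTG was in 28.2% (24.8 to 31.9%) and CAGATG in 14.9% (12.3 to 17.97%), against 15.7% and 14.4% of all protein-coding start windows. The latter include the windows under a peak. Median GC content was 63.2% in the coding windows under a peak and 56.7% in all of them, and its part in these shares was not tested.

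The peaks gathered at the start of lncRNA genes more than at the far end. The start windows give the strand of the nearest lncRNA for 343 of the 450 peaks, and this strand was no part of how the peaks were chosen. Within 250 bp of the nearest lncRNA end, 39 peaks lay at a start and 6 at a finish (86.7% at a start, 95% Wilson interval 73.8 to 93.7%). Between 250 and 500 bp there were 25 and 13, and between 500 bp and 1 kb 16 and 12. From 1 to 5 kb the counts were equal, at 116 and 116. The density at starts fell from 156 peaks per kb in the first 250 bp to 22.0 per kb between 4 and 5 kb, while at finishes it was 24.0 per kb in the first 250 bp and 31.0 per kb between 4 and 5 kb. The highest density at finishes was 52.0 per kb, between 250 and 500 bp. Between 1 and 2 kb the densities were 41.0 per kb at starts and 40.0 per kb at finishes.

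**Figure D1:**
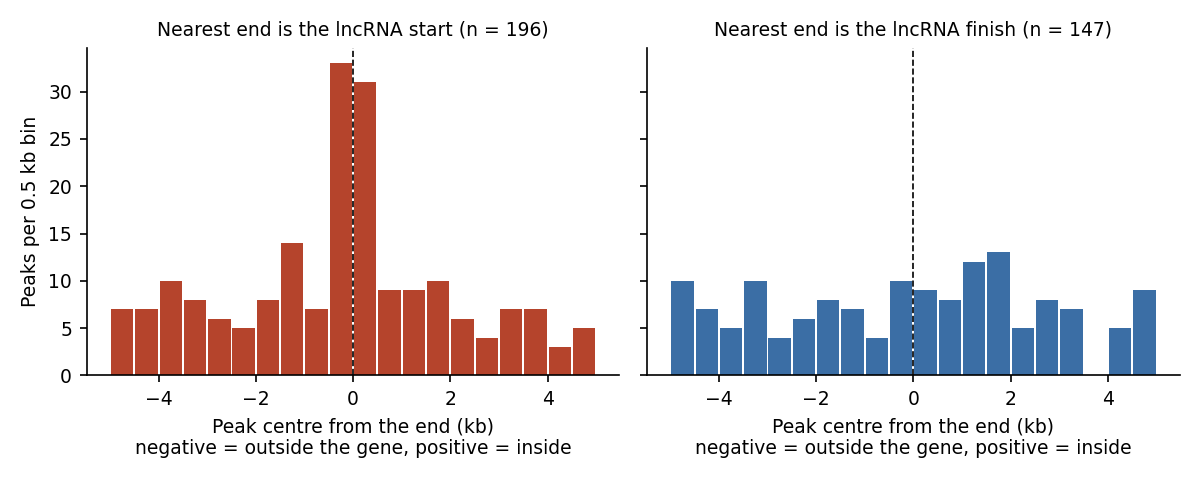
Number of peaks (y axis, per 0.5 kb bin) by the distance of the peak centre from the nearest lncRNA gene end in kb (x axis, negative outside the gene), for 196 peaks nearest to a start (left) and 147 nearest to a finish (right). The bins on either side of a start stand above all others, and no such bin is seen at the finish.

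Of the 39 peaks within 250 bp of a start, 19 were centred before it and 20 at or inside it, so that they straddled the start. Their median width was 377 bp (quartiles 269.5 and 469 bp). The limit of 1 kb had left out peaks near protein-coding gene ends, so only annotated coding starts inside a gene body could still count. Of the 39 peaks, 14 were centred inside a protein-coding gene, and 3 lay within 1 kb of such a start. Peaks within 250 bp of protein-coding gene ends showed the same side more strongly, with 457 at a start and 12 at a finish (97.4%, 95.6 to 98.5% at a start), although these were not held away from another kind of gene. When no distance was kept from protein-coding ends, 95 peaks lay within 250 bp of a lncRNA start and 7 within 250 bp of a finish. Among the wider 50% of peaks the counts were 19 and 4.

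Counted without regard to strand, 152 of the 450 peaks (33.8%) were centred within 1 kb of the lncRNA end and 298 (66.2%) between 1 and 5 kb, with a median distance of 1680 bp. The peak itself reached over the nearest lncRNA end in 48 cases. At the outer limit of 5 kb, the peak at Gm38545 (4981 bp away) was the last inside and that at LOC115486410 (5008 bp) the first outside. At the limit of 1 kb from coding genes, the peak at Gm39951 (1022 bp) was the first inside and that at Gm39226 (998 bp) the last outside. A further 139 peaks near lncRNA ends lay within 1 kb of a protein-coding end and were left out by that limit.

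Peaks lay inside and outside the nearest-end lncRNA gene about equally. The centre was inside the lncRNA gene whose end was nearest in 214 of 450 cases (47.6%) and inside a protein-coding gene in 148 (32.9%, 28.7 to 37.4%). In 64 cases it was inside both, and in 152 inside neither. Other lncRNA genes were not counted here, and a peak in neither can lie inside one of them, as both peaks at Dll4 did. Of the 302 peaks outside protein-coding genes, the middle 50% lay 8.67 to 98.0 kb from the nearest one (median 33.9 kb), and 73 of the 450 lay more than 100 kb from any. Over all 3662 peaks 53.7% were inside a protein-coding gene, but the limit of 1 kb from coding ends enters that comparison.

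The 450 peaks named 411 different nearest lncRNA genes. Of these, 258 overlapped no protein-coding gene, 84 lay across genes on the opposite strand only, and 9 across genes on the same strand only. A further 59 overlapped a gene where a strand was missing. Of the 313 with a known strand, 14 had their start head to head with the start of a protein-coding gene within 5 kb, among them C230024C17Rik, Gm35978 and Gm33151 described below and, named after their values were seen, Gm26559 beside Map1b, a gene of a microtubule-associated protein of growing axons. The limit of 1 kb from coding ends left out peaks close to such coding starts. These arrangements were not counted over all lncRNA genes, so none can be called particular to the genes with a peak.

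The peaks at lncRNA ends had a median width of 399 bp (quartiles 276.5 and 521.5 bp), against 381 bp for all peaks. For the 794 peaks within 1 kb of a protein-coding end the median was 357 bp (quartiles 268 and 456.75 bp), and for 450 intergenic peaks 5 kb or more from any gene end and within 100 kb of a protein-coding gene it was 385 bp (quartiles 267.25 and 498.75 bp). A width of 600 bp or more was reached by 66 of the 450 lncRNA-end peaks (14.7%, 11.7 to 18.2%) and by 56 of the 794 coding-end peaks (7.05%, 5.47 to 9.05%). The lncRNA-end peaks were thus spread further to the wide side than coding-end peaks and close to the intergenic ones. Width is the extent of a called region and no measure of occupancy, and these differences were not tested.

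**Figure D2:**
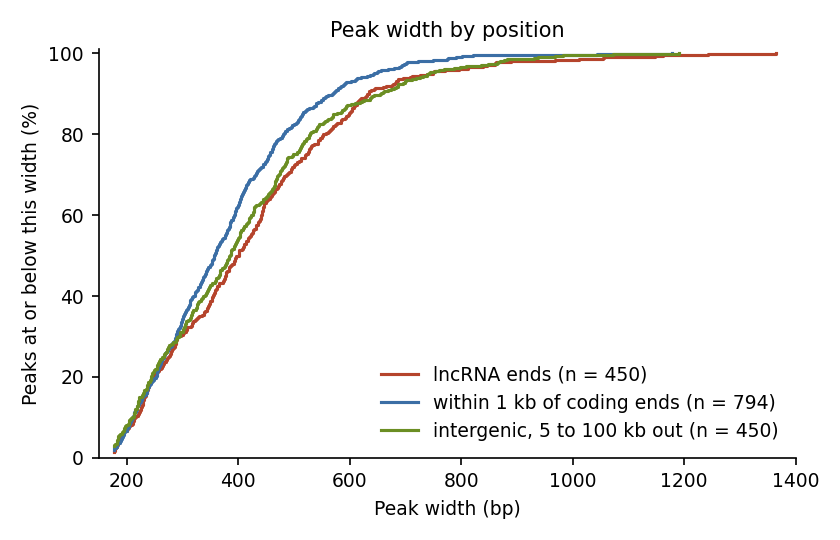
Cumulative share of peaks (y axis, percent) at or below each width in bp (x axis) for lncRNA-end peaks, peaks within 1 kb of protein-coding ends and intergenic peaks. The curve of the lncRNA-end peaks (median 399 bp) runs over most of its range to the right of that of the coding-end peaks (median 357 bp) and near that of the intergenic peaks (median 385 bp).

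The widest peaks lay both at starts and well away from the lncRNA. The widest of all (1365 bp, chr4:128715290-128716654) was centred 2604 bp beyond the finish of Gm33712, inside Phc2, a Polycomb gene. The next (1242 bp, chr15:101220807-101222048) covered the start of AU021063, whose window is shown above, and was centred 180 bp inside it and 2.78 kb from Grasp. A peak of 1162 bp at chr5:113872802-113873963 was centred 26 bp inside the start of Gm42005, within Coro1c, a gene of an actin regulator. These 3 were followed by a peak of 1147 bp near Gm19497 and by one of 1057 bp inside 1500012K07Rik. The protein-coding gene nearest to the centre of that last peak was the synaptic vesicle gene Sv2b, at 20.2 kb. The lncRNA gene 1500012K07Rik itself overlapped a protein-coding gene on the opposite strand.

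The rest of the 12 widest measured from 1055 to 861 bp. They lay at Gm52821 (272 bp beyond its finish), Gm32683, Gm36120, Gm35807, Gm40181, Gm31636 and Gm19385. The peak at Gm19385 was centred 71.9 kb from the beta-catenin gene Ctnnb1. Of these 12 peaks, 5 were nearest to a start, 6 to a finish and 1 to a gene of unknown strand, and 2 of the 12 were centred within 250 bp of an end, against 12.4% of the 450 peaks. The widest peaks thus lay at no single kind of place.

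Few lncRNA genes carried more than 1 of these peaks. Counting every gene with an end within 5 kb of such a peak, 444 of 12697 lncRNA genes (3.5%) had at least 1, of which 396 had 1, 46 had 2 and 2 had 3. The genes with 3 were Gm51817 and LOC115489511. The peaks of Gm51817 were 238, 435 and 419 bp wide, all beyond its finish within 2.76 kb of each other and inside the phosphatase gene Ppm1h. Those of LOC115489511 lay 4516 bp before its start and 4032 and 4614 bp beyond its finish.

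Among genes with 2 peaks, 4930578M01Rik had one centred 13 bp before its start (505 bp wide) and another 1225 bp inside it (563 bp wide), 32.5 and 33.7 kb from Tuba1a, an alpha-tubulin gene of young neurons. B930092H01Rik, C330008A17Rik and C230024C17Rik also had 2. Another peak of the list lay within 10 kb of 92 of the 450 peaks (20.4%, 17.0 to 24.4%), against 81 of the 450 intergenic peaks and 15.2% of all peaks.

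LncRNA genes were next grouped by kind of symbol. miRNA host genes, named Mir with the ending hg, had such a peak in 5 of 14 cases (35.7%, 16.3 to 61.2%), against 3.5% of all lncRNA genes. Genes named as opposite-strand or antisense had one in 3 of 217 (1.38%, 0.471 to 3.99%), and none of the others of that kind had a peak of any sort within 5 kb of an end. Of 17 snoRNA hosts (Snhg genes) 1 had a peak. Genes known only by a Gm number had one in 346 of 10102 (3.43%) and Rik clones in 66 of 1787 (3.69%), both near the share of all lncRNA genes. Genes with a curated RefSeq record stood at 3.68% and predicted ones at 3.43%. Any peak within 5 kb of an end, whether or not near a coding end, was found for 4.56% of lncRNA genes.

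**Figure D3:**
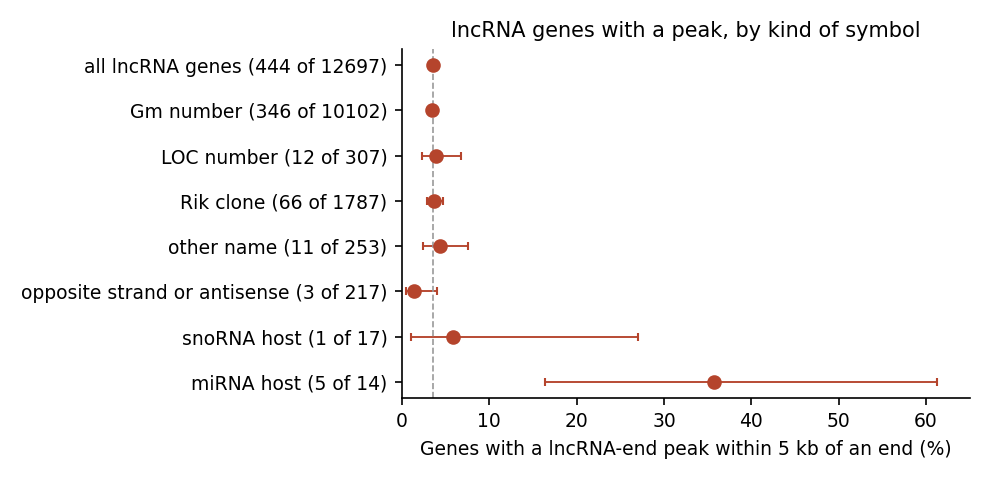
Share of lncRNA genes with a lncRNA-end peak within 5 kb of an end (x axis, percent, with 95% Wilson intervals) by kind of gene symbol, with the share of all lncRNA genes as a dashed line. The 14 miRNA hosts stand at 35.7%, and the other kinds lie between 1.38 and 5.88%.

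The miRNA hosts differed in where the peak lay. Mir22hg had a peak (557 bp, chr11:75461278-75461834) centred 17 bp inside its start, over the window shown above and 2160 bp from the Mir22 hairpin. Mir124a-1hg, a host of the neuronal miRNA miR-124, had a pair of peaks 384 and 392 bp wide, centred 1023 and 2582 bp outside the gene. Mir124-2hg had a peak of 397 bp inside the gene, 3915 bp from an end. The peaks of the miR-124 hosts were thus of nearly equal width, but on different sides of the gene end.

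Mirc35hg is the host of the cluster of miR-183, miR-96 and miR-182, which is known for its high level in photoreceptors and other sensory cells. Its peak (245 bp, chr6:30169155-30169399) lay 4848 bp inside the start, between hairpins of the cluster. The peak centre was 169 bp from the Mir96 hairpin, 391 bp from Mir183 and 3285 bp from Mir182. Mir217hg, which contains Mir216b, had a peak of 573 bp centred 4463 bp inside its start and 11095 bp from that hairpin. The mature miRNAs of Mirc35hg, Mir22hg and Mir217hg are shown because these are the products of the genes the peaks lie in. They are from RefSeq (GRCm38.p6), 5′ to 3′, with the seed, bases 2 to 8, in capitals.
mmu-miR-183-5p: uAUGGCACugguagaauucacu
mmu-miR-96-5p: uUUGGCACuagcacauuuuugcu
mmu-miR-182-5p: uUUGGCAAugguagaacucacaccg
mmu-miR-22-3p: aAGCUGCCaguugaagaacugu
mmu-miR-216b-5p: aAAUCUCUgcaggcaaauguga
No seed of 7 bases is shared among these.

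Of 71 lncRNA genes listed for neural or retinal roles, 56 were in the gene table and 8 (14.3%) had a lncRNA-end peak, against 3.5% of all. The list overlaps the miRNA hosts, which supply 3 of the 8. Rmst, a lncRNA of neurogenesis that binds Sox2, had a peak of 212 bp centred 302 bp outside one end. Miat, a lncRNA of neurons and retinal precursors also called Gomafu, had one of 402 bp centred 3230 bp inside its start. Paupar, transcribed upstream of the eye-field gene Pax6 and known to act on it, had a peak of 485 bp inside the gene, 814 bp from an end and 8.37 kb from Pax6. These peaks lay on both sides of the gene ends, and none reached over one.

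Kcnq1ot1, the imprinted lncRNA that silences neighbouring genes on the paternal chromosome, had a peak of 232 bp centred 150 bp before its start, inside Kcnq1. Neat1, the RNA scaffold of nuclear paraspeckles, had one of 189 bp centred 1204 bp outside the gene. Among snoRNA hosts, Snhg8 had a peak of 291 bp centred 269 bp before its start. Rab10os, an opposite-strand gene, had one of 389 bp centred 271 bp before its start, and the other 2 opposite-strand genes, Fhad1os2 and Aknaos, had theirs 1735 and 4639 bp from the finish.

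The protein-coding genes beside these peaks included regulators of retinal neurogenesis. For 377 of the 450 peaks a protein-coding gene lay within 100 kb, and these peaks named 328 genes, 1.52% of the 21627 protein-coding genes. Of all 3194 peaks with a protein-coding gene in that reach, 11.8% were lncRNA-end peaks. Among 34 neurogenic progenitor genes, 5 were nearest to such a peak (14.7%), with 9 of the 53 peaks of that list (17.0%). Among 30 Notch pathway genes 4 were (13.3%), with 6 of 29 peaks (20.7%). Since these lists hold many peaks of every kind, the share of their peaks is the closer comparison, and it was not tested. The lists share members such as Dll4 and Onecut1.

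At Dll4, a Notch ligand gene of newborn neurons, both peaks of the gene were of this kind. They were 509 and 184 bp wide and centred 248 and 1905 bp beyond the end of Gm52558, 3.21 and 1.56 kb from Dll4. Both lay inside another lncRNA gene, Gm14207, which is on the strand opposite to Dll4 and overlaps the Dll4 start. Notch1, a Notch receptor gene, had 2 of its 3 peaks here, 409 and 227 bp wide, centred 3059 and 1637 bp before the start of Gm35978 and inside Notch1. Notch2 had a peak of 190 bp inside the gene, 182 bp inside the start of Gm40103. At Hes1, a Notch effector gene, the peak lay 45.0 kb away, 1077 bp inside the finish of 4632428C04Rik. The ligand and receptor peaks were thus within or a few kb from the coding gene, and that of the effector was not.

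Btg2, an antiproliferative gene of progenitors about to divide into neurons, had 2 of its 3 peaks at lncRNA ends. The wider, of 1147 bp, was centred 2396 bp before the start of Gm19497 and 11.5 kb from Btg2. The other, of 502 bp, lay 1965 bp inside the start of Gm32039. A further peak of 500 bp covered the start of Gm19497 itself, 193 bp from it, and was counted for Fmod because that gene was nearer. Rgs16, a regulator of G-protein signalling, had peaks of 467 and 447 bp centred 423 and 4395 bp inside the start of C230024C17Rik, 2.95 and 6.92 kb from Rgs16. Olig2, a bHLH gene, had a peak of 237 bp at 1.75 kb, 4774 bp beyond the finish of Gm52261. Some lncRNA-end peaks, such as this one, thus lay nearer to a protein-coding gene than to the lncRNA end, and how many did was not counted.

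**Figure D4:**
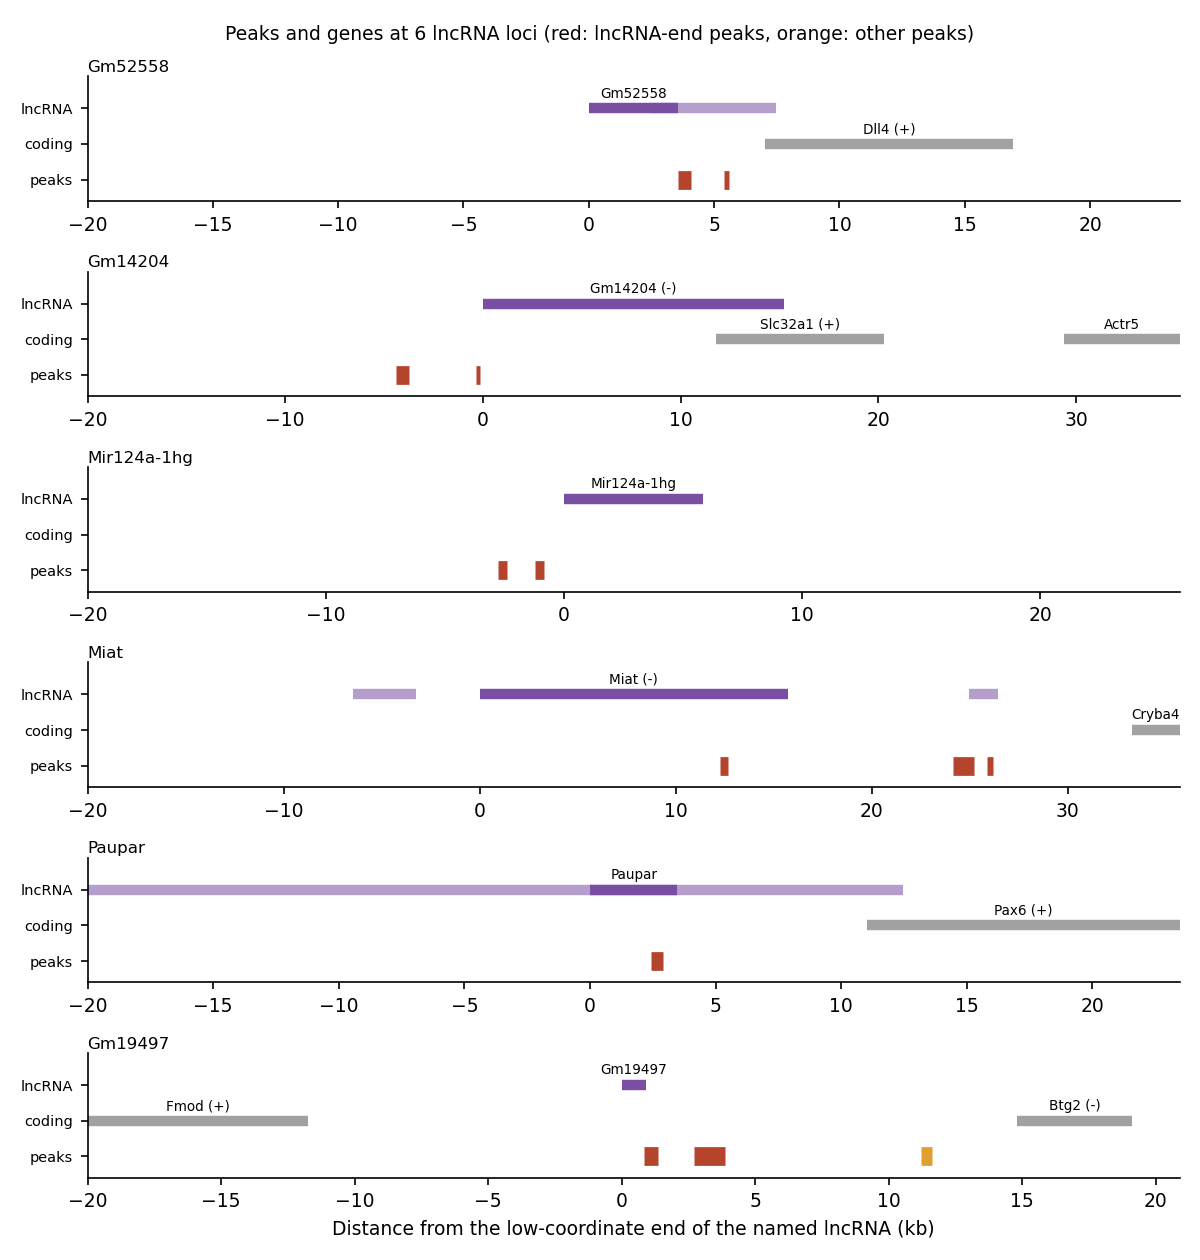
Peaks (red at lncRNA ends, orange elsewhere), protein-coding genes (grey) and lncRNA genes (purple, the named one darker) at 6 loci, by distance in kb from the low-coordinate end of the named lncRNA (x axis), with the strand in brackets for some of the genes where it is known. A pair of red peaks lies beside the ends of Gm52558, Gm14204, Mir124a-1hg and Gm19497, and a red peak inside Miat and inside Paupar.

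Genes of amacrine, horizontal and photoreceptor fate had 6 of 27 members (22.2%) nearest to a lncRNA-end peak, with 9 of the 29 peaks of the list (31.0%). Slc32a1, the vesicular GABA and glycine transporter gene, had peaks of 634 and 191 bp centred 4074 and 247 bp beyond the finish of Gm14204, a gene that runs across the low-coordinate end of Slc32a1 on the opposite strand. Onecut1, a gene of a horizontal and ganglion cell factor, had peaks of 201 bp near the start of Gm16551 and 347 bp inside Gm33562, at 14.97 and 1.24 kb from Onecut1. Casz1, a zinc finger gene of photoreceptor fate, had peaks of 459 and 341 bp inside Gm15969 and inside Casz1. For Barhl2, Tfap2c and Neurod6, amacrine transcription factor genes, there was 1 peak each, 402, 226 and 210 bp wide, with that of Barhl2 inside the gene and those of Tfap2c and Neurod6 at 20.7 and 31.0 kb. In this list the peaks lay both inside the lncRNA and outside it, and 1 of the 9 was within 250 bp of an end.

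Eye-field and progenitor genes had 4 of 30 members (13.3%) nearest to such a peak, with 5 of the 15 peaks of the list (33.3%). The same shares over all protein-coding genes and their peaks were 1.52% and 11.8%. Both peaks of Pax6 were of this kind, the one in Paupar described above and one of 231 bp inside Gm35946 at 56.6 kb. Nr2f1, a nuclear receptor gene, had a peak of 477 bp inside 3110006O06Rik at 7.24 kb, and Id3, an inhibitor of bHLH dimers, had one of 436 bp inside Gm42329 at 3.27 kb.

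Ganglion cell genes were nearest to a lncRNA-end peak in 1 of 37 cases (2.70%), against 1.52% of all protein-coding genes. That was 1 of the 23 peaks of the list (4.35%), against 11.8% of all peaks with a protein-coding gene within 100 kb. The gene was Klf7, of a factor for axon growth, where a peak of 528 bp at chr1:64078661-64079188 was centred 407 bp before the start of Gm13748 and inside Klf7. Of 22 genes of pigment epithelium, lens and blood vessels, 0 were nearest to a lncRNA-end peak, and that list had 2 peaks of any kind. Among the protein-coding lists with such a peak, the share ran from 4.35% for ganglion cell genes to 33.3% for eye-field genes, on counts too small to rank the lists.

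Several protein-coding genes had more than 1 lncRNA-end peak, 38 in all. The genes with 4 were Slit1, which encodes a secreted axon repellent and had 8 peaks in all, Gse1, with 27 in all, Msra, a methionine sulfoxide reductase gene, and Cstad. In Msra all 4 of its peaks were at ends of Gm41176, Gm52129 and Gm52131, inside Msra. At Slit1, 3 lay inside the gene, at ends of Gm34116 and Gm52407, and the fourth, 188 bp wide, lay 7.73 kb outside it at Gm19424. These 4 genes were named after their values were seen.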

How the data were processed

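CUT&RUN was run on 3 libraries of mouse retina, 2 with an Atoh7 antibody and 1 with IgG, grouped by title. Per the submitters' processing notes the authors used mm10 with MACS2 2.2.7.1, bedtools, Bowtie2 2.3.5, Picard 2.0.1 and SAMtools. The roles and settings of these tools, and whether libraries were pooled, are not given in the sources used here. The deposited list gives chromosome, start, end and width in bp, per the file headers, counted from 1. All peak names begin with Atoh7_R1.

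Peak centres were measured against 12697 lncRNA and 21627 protein-coding RefSeq genes of GRCm38.p6, leaving out 6 peaks elsewhere. Strand and start windows came from the RefSeq promoter table, which held 9520 of the lncRNA genes (75.0%), none on chromosome 18. A peak over several windows was given the one it overlapped most. E-boxes were planned for windows centred on peaks, and start windows took their place because no genome was used here. Shares carry 95% Wilson intervals. The members, gene lists and naming rule were chosen with earlier results of these data known. Named genes were those at the 12 widest peaks, the 6 lncRNAs with the most peaks (ties alphabetical), up to 6 per list and up to 8 per symbol class. With the peaks nearest to a lncRNA end taken first, those of Miat, Barhl2, Neurod6 and Olig2 came after the first 6 of their lists. Their values are given as well. Other names added with values in view are marked as such. Distance and motif functions were tested on simulated data. Scripts ran in Python 3.11.15 with pandas 2.3.3, matplotlib 3.10.9, scipy 1.17.1 and numpy 2.4.6.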

Additional observations from a re-analysis of the deposited data

How the results depend on the processing

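The list gives no value per library, so no replicate could be left out, depth limits are unknown and no test was run. No paired analysis was possible because no value belongs to a library. A distance of 1 kb gave 152 peaks at 149 lncRNA genes, 25.7% of them inside a protein-coding gene, and 2 kb gave 256 peaks at 241 genes. With 10 kb there were 685 peaks, 37.4% of them inside a protein-coding gene. Keeping more than 5 kb from protein-coding ends moved the median distance to such an end from 27.2 to 39.9 kb, and keeping no distance moved it to 12.04 kb, by construction. The wider 50% of peaks left 242 at 229 genes, with a median width of 507.5 bp. Curated lncRNA records only, an alternative chosen after the data were seen, gave 135 peaks at 119 genes, 23.7% of them inside a protein-coding gene, and a median distance of 14.97 kb, and the cause of the last 2 was not tested. Start windows with an E-box fell from 84.6% to 61.5% when only CAGCTG or CATATG or CAGATG was counted, and to 59.6% in the part under the peak, also chosen after the data were seen. The other 24 of 42 alternative values stayed within counting error or 1.5 times the value reported. Windows of 200 bases and whole peaks were not run, for want of a genome.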

Other observations

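Lists and named classes leave out some loci, given here as values and chosen after they were seen. Gm5089 had a peak of 365 bp centred 217 bp inside its start, 8.23 kb from the zinc finger gene Zic5, and one of 571 bp 1848 bp inside its finish. D730050B12Rik had peaks of 608 and 362 bp centred 502 bp inside and 3792 bp before its start, 182 and 186 kb from the nearest protein-coding gene, the Iroquois gene Irx2. Gm30771 had a peak of 478 bp centred 73 bp before its start and 36.8 kb from the cyclin gene Ccne1. Chromosome 2, with the most peaks of any kind and the most lncRNA genes, held the most lncRNA-end peaks. These were 53 of its 340 peaks (15.6%), against 12.3% over all chromosomes. The share was highest on chromosome 13, with 25 of 148 (16.9%), and lowest on chromosome 7, with 13 of 209 (6.22%). Chromosome X held 3 of 37.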
